A study of Mus musculus with 6 samples.

Results

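Apolipoproteins and the enzymes that build and remodel lipoproteins were examined as a set of 10 genes: Apoa1, Apoa2, Apoa4, Apoa5, Apob, Apoc2, Apoc3, Apoe, Mttp and Lcat. They were chosen by name, and every probe whose RefSeq accession belonged to one of them was taken, which gave 17 of the 56605 probes on the array. The livers came from male mice that were 12 weeks old at the start and were fed for 4 weeks either regular granulated chow alone (control, n = 3) or chow in which 25% was soy bean and 75% regular food (soy, n = 3). Each mouse gave 1 sample, cut from the right hepatic lobe, and 1 one-colour Agilent array. The strain is not given in the sources used here. All 17 probes were well above background on all 6 arrays, and no spot of theirs was marked as saturated. The spots well above background numbered 36366 to 38163 on the control arrays and 31308 to 32498 on the soy arrays. The comparison asks whether 4 weeks of soy feeding altered the liver's own messages for lipoprotein proteins. The authors report that the soy chow held more lipid and protein and less carbohydrate than the regular chow. These differences between the diets cannot be told apart from soy as such.

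The liver exports triglyceride and cholesterol in very-low-density lipoprotein (VLDL), a particle built around a single molecule of apolipoprotein B that microsomal triglyceride transfer protein (Mttp) loads with lipid in the endoplasmic reticulum. Apolipoproteins C2, C3 and A5 then set how fast lipoprotein lipase empties the particle, and apolipoprotein E is the ligand by which the liver takes up what remains. High-density lipoprotein (HDL) forms around apolipoproteins A1 and A2, and lecithin-cholesterol acyltransferase (Lcat) esterifies the cholesterol that it collects.

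Apoa1, Apoc3, Apoa4 and Apoa5 are neighbours on mouse chromosome 9, with no other gene between them in the RefSeq annotation of GRCm38.p6. Apoc2, Apoc4, Apoc1 and Apoe lie together on chromosome 7, where a further gene model, Gm44805, overlaps Apoc2 and Apoc4, so the signal of the Apoc2 probes may include it. The starts of Apoa4 and Apob are shown because these genes gave the largest change in each direction, and that of Apoa1 because it shares the cluster of Apoa4. Each sequence is the RefSeq (GRCm38.p6) promoter on the plus strand, from 250 bases before the annotated start to 50 bases after it. Apoa4 is at chr9:46240594-46240893, Apoa1 at chr9:46228380-46228679 and Apob at chr12:7977427-7977726. Capitals mark CAAAGNNCA, a core of the sites that nuclear receptors such as HNF4A recognise, on either strand (TGNNCTTTG on the other).
Apoa4: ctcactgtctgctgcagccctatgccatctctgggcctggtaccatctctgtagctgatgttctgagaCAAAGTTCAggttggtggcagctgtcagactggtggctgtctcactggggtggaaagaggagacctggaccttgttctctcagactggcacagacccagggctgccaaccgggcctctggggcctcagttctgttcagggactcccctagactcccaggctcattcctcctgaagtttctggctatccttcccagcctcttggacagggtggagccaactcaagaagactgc
Apoa1: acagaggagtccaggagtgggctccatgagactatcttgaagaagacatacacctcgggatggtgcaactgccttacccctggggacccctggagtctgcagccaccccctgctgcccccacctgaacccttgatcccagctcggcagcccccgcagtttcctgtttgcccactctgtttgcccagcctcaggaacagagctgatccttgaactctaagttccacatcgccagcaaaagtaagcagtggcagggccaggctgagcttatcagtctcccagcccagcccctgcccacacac
Apob: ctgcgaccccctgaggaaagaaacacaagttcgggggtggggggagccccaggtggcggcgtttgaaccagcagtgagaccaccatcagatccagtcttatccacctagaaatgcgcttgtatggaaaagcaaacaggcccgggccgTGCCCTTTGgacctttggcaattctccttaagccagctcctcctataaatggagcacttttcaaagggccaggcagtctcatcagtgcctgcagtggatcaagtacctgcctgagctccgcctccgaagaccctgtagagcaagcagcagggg
RefSeq promoters were found for 9 of the 10 genes, with 13 starts in all. The motif was present in 2 of these 13, Apoa4 and Apob, and in 6.36% of the 32851 promoters of 300 bases in the table. A match is a string of letters and not a measured binding site, and its absence says only that these letters are not in the window.

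None of the 10 genes passed the test, for which limma's adjusted p had to be below 0.05 and soy over control either more than 1.5-fold or less than 0.66-fold. None of the 17 probes did so either. Of all probes on the array, 0.350% passed (0.208% higher and 0.141% lower in soy), as did 0.630% of those well above background on all 6 arrays. The largest differences were in Apoa4, which was 1.69-fold lower in soy, and in Apob, which was 1.38-fold higher. These were the 2 genes with an unadjusted p under 0.05, a level that 11.5% of all probes and 18.1% of those well above background on all 6 arrays reached. The median difference over the 10 genes, soy minus control, was -0.05 on the log2 scale (range -0.76 to 0.46), beside -0.01 over all probes. The diets gave values without overlap in 1 of the 10 genes, Apoa4. This was so for 18.0% of all probes (7.75% higher and 10.3% lower in soy) and for 23.8% of those well above background on all 6 arrays, so that a single gene of 10 is no more than the array as a whole gave. These samples are whole tissue, in which fewer cells of a type and less RNA per cell cannot be told apart.

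**Figure D1:**
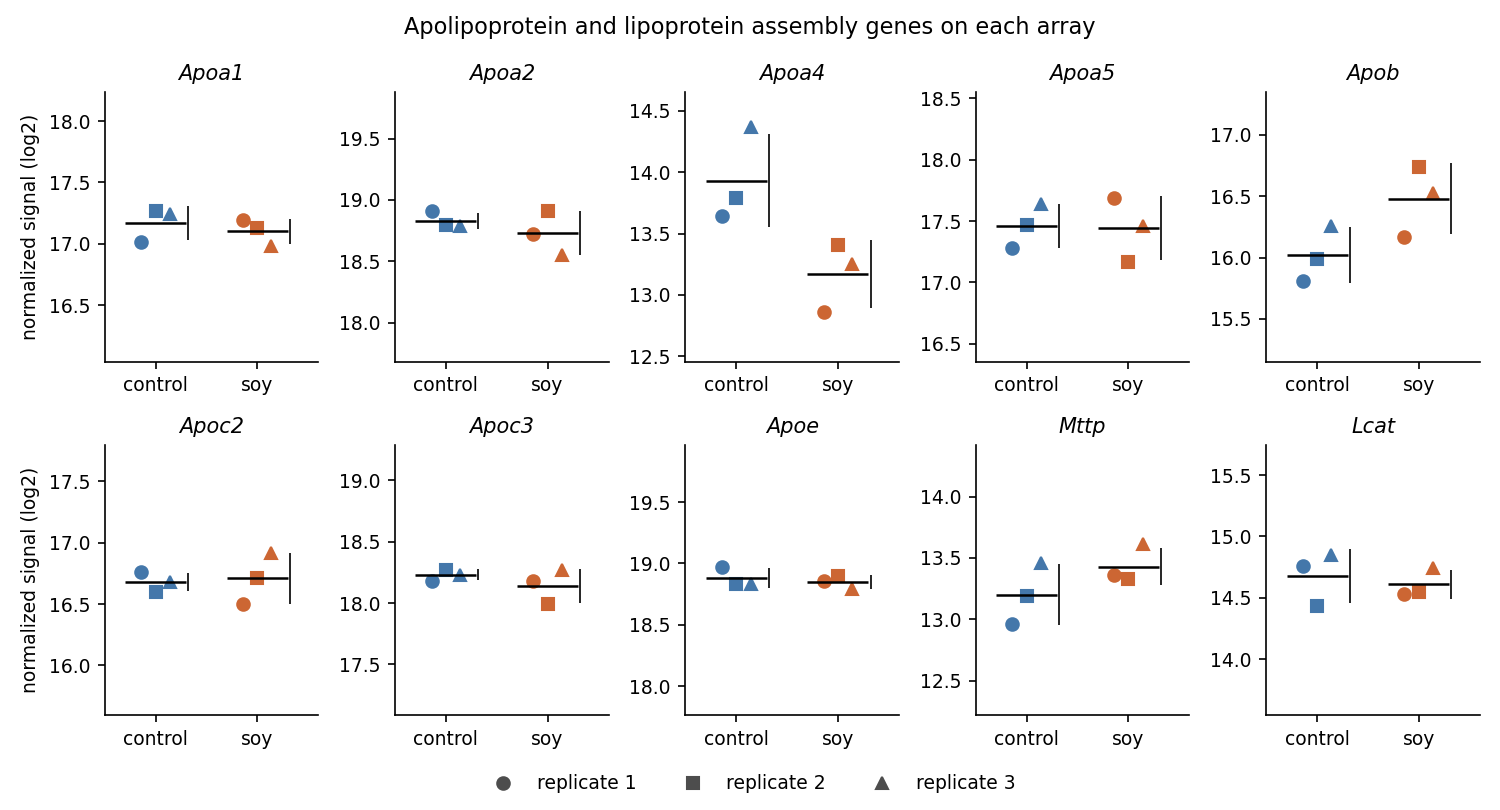
Normalized signal (log2) of the brightest probe of each of the 10 genes on the 3 control (blue) and 3 soy (orange) arrays, with the group mean (horizontal line) and SD (vertical line); every panel spans the same range of log2 units. Apoa4 is the gene whose groups do not overlap, with 13.64 to 14.37 in control and 12.86 to 13.41 in soy.

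Of Apoa1, Apoa2, Apoa4 and Lcat, the genes of HDL among the 10, Apoa4 was the one without overlap. It encodes an apolipoprotein of HDL and of intestinal chylomicrons that the mouse liver also makes. Its signal (NM_007468) was 13.64, 13.79 and 14.37 (log2) on control arrays 1, 2 and 3, and 12.86, 13.41 and 13.25 on soy arrays 1, 2 and 3. All 3 soy values lay under the lowest control value, and the gap between the nearest arrays, control 1 and soy 2, was smaller than the range within either group. The difference was -0.76 (SE 0.22, 95% interval -1.27 to -0.25), which did not pass (limma, adjusted p = 0.235). It was -0.86 within slide 1 and -1.12 within slide 3, the slides that held both diets. The array carries a single probe for Apoa4.

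Apoa1, the main structural protein of HDL, had 17.01, 17.27 and 17.24 in control and 17.19, 17.13 and 16.98 in soy livers. The groups overlapped, and the difference was -0.07 (SE 0.11, 95% interval -0.34 to 0.20, limma adjusted p = 0.858). For Apoa2, the next most abundant HDL protein, the control arrays gave 18.91, 18.80 and 18.79 and the soy arrays 18.72, 18.91 and 18.55. The highest control and the highest soy value were equal, and the difference was -0.11 (SE 0.12, limma adjusted p = 0.785). Lcat had 14.76, 14.43 and 14.85 in control and 14.53, 14.55 and 14.74 in soy. Each soy value fell inside the control range, with a difference of -0.073 (SE 0.14, limma adjusted p = 0.877).

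Within the chromosome 9 cluster, Apoa1, Apoc3 and Apoa5 differed by -0.07, -0.084 and -0.022 between the diets, beside -0.76 for Apoa4. Taken within each array, the log2 signal of Apoa4 less the mean of its 3 neighbours was -3.84, -3.88 and -3.34 in control and -4.83, -4.01 and -4.32 in soy. Each soy value was under the lowest control value, and the mean went from -3.69 ± 0.30 to -4.39 ± 0.41 (SD, n = 3). This contrast was chosen after the values were seen and was not tested.

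Apoa5, Apoc2 and Apoc3, the apolipoproteins that govern lipolysis, overlapped between the diets. Apoa5, which promotes triglyceride clearance by lipoprotein lipase, had 17.28, 17.47 and 17.64 in control and 17.69, 17.17 and 17.46 in soy. Both the lowest and the highest value came from soy livers, and the difference was -0.022 (SE 0.16, 95% interval -0.39 to 0.35, limma adjusted p = 0.973). Apoa5 differed by 0.32 within slide 1 and by -0.18 within slide 3, so its direction was not stable. Apoc2, the activator of lipoprotein lipase, had 16.76, 16.60 and 16.68 in control and 16.50, 16.71 and 16.92 in soy, again with the control values inside the soy range. Its difference was 0.032 (SE 0.13, 95% interval -0.27 to 0.33, limma adjusted p = 0.948), with -0.18 within slide 1 and 0.24 within slide 3. Apoc3, which inhibits lipolysis and the uptake of remnants, had 18.18, 18.27 and 18.23 in control and 18.18, 17.99 and 18.27 in soy. Soy 2 was the low array, and the difference was -0.084 (SE 0.11, 95% interval -0.33 to 0.17, limma adjusted p = 0.813).

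With the arrays quantile normalized, Apoe, the remnant ligand, had the narrowest 95% interval of the 10 genes. Its values were 18.97, 18.83 and 18.83 in control and 18.86, 18.90 and 18.79 in soy. The difference was -0.031 (SE 0.10, limma adjusted p = 0.931), and its 95% interval corresponds to 0.838-fold to 1.14-fold of control. This rank depended on the normalization. With only a shift of each array to a common 75th percentile, the SE of Apoe was 0.17. It was then 0.13 for Apoa1, Apoc2, Apoc3 and Lcat, and 0.20 for Apoa2.

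Of the genes for VLDL assembly, Apob had 15.81, 15.99 and 16.26 in control and 16.17, 16.74 and 16.53 in soy livers. Soy 2 and soy 3 were above all control arrays, whereas soy 1 was under control 3. The difference was 0.46 (SE 0.18, 95% interval 0.049 to 0.87), and it did not pass (limma, adjusted p = 0.380). With slide as a block the value was 0.27, and it was likewise 0.27 within slide 1 and within slide 3, while the highest soy array, soy 2, was alone on slide 2. Mttp had 12.96, 13.19 and 13.46 in control and 13.36, 13.33 and 13.61 in soy. Its groups overlapped through control 3, and the difference was 0.23 (SE 0.15, 95% interval -0.12 to 0.58, limma adjusted p = 0.617). It was 0.11 without control 1, 0.14 without soy 3 and 0.36 without control 3.

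The intervals bound how large a change these arrays leave room for. For 8 of the 10 genes, all but Apoa4 and Apob, the 95% interval lay within 1.5-fold in both directions, as it did for 76.5% of all probes and for 70.2% of those well above background on all 6 arrays. The median standard error of the 10 genes was 0.13, the same as over all probes. Each of the 6 genes with more than 1 probe had the same sign on all of its probes. The dimmer Apob probe differed by 0.28 (SE 0.16, limma adjusted p = 0.579), against 0.46 on the brighter, and by 0.24 within slide 1 and -0.034 within slide 3. For Apoc3, the 3 probes differed by -0.084, -0.10 and -0.22, and the dimmest of them, with a mean of 10.10 in control livers, was the one farthest from 0.

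**Figure D2:**
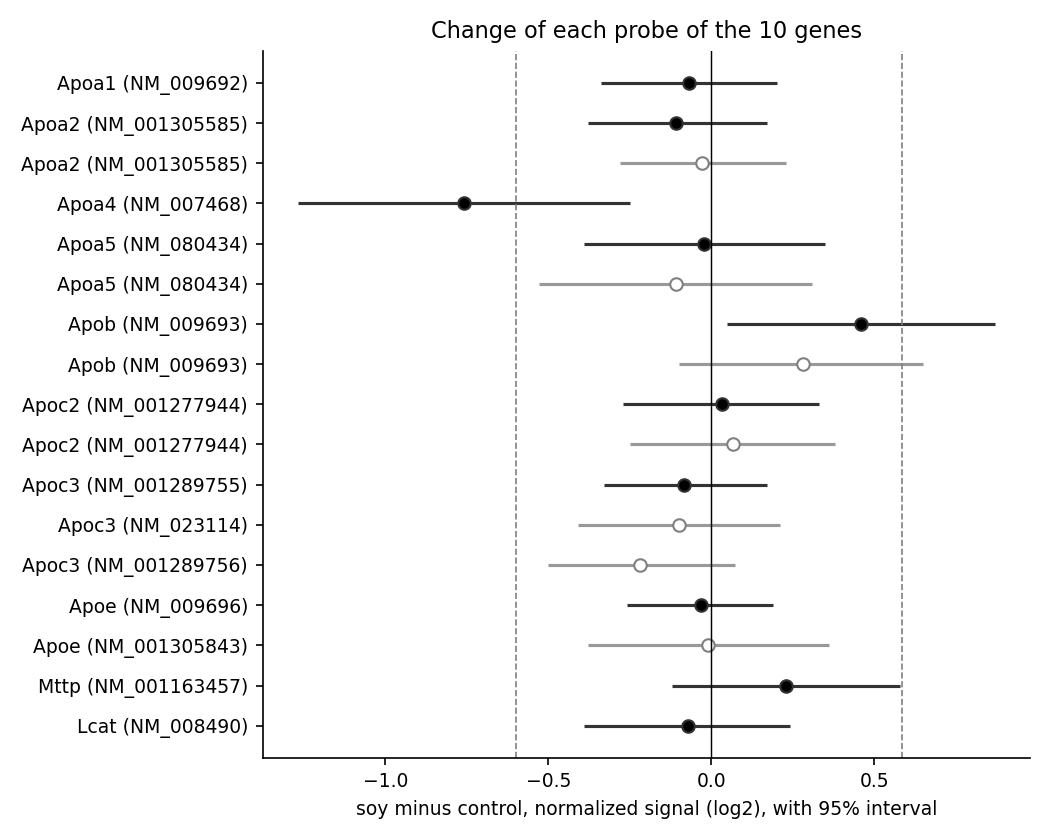
Soy minus control difference of normalized signal (log2, points) with its 95% interval (lines) for each of the 17 probes, filled for the brightest probe of a gene and open for the others; dashed lines mark fold changes of 1.5 and 0.66. The intervals of Apoa4 (-1.27 to -0.25) and of the brighter Apob probe (0.049 to 0.87) are those that leave out 0.

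Several of these probes are among the brightest on the array, with 5 of the 17 within the 100 brightest of all probes. Their raw median intensity reached 68.3% of the value at which the scanner saturates. Quantile normalization gives all arrays the same set of values, which can limit what is read from small differences of the brightest probes. With only a shift of each array to a common 75th percentile, the bright Apoa2, Apoc3 and Apoe differed by -0.079, -0.081 and 0.04, where Apoe had the opposite sign to its quantile-normalized difference of -0.031.

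Beyond these 10 genes, 60 others that act in lipoprotein biology were examined in 5 lists, each gene by its brightest probe. None passed (limma), while 9 had an unadjusted p under 0.05. Soy and control did not overlap for 11 of them, 3 higher and 8 lower in soy. Against the shares of the array given above (11.5% and 18.1% for the first, 18.0% and 23.8% for the second), neither count sets these 60 genes apart. Their median difference was -0.054. The 3 genes with the smallest adjusted p of each list are described.

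In the list of other apolipoproteins (7 genes, median -0.058, none without overlap) the differences ran from -0.28 to 0.05. Apom, which carries sphingosine-1-phosphate on HDL, was 16.77 ± 0.23 in control and 16.49 ± 0.11 in soy (log2, SD, n = 3; limma adjusted p = 0.502). Apof and Apod differed by -0.087 and -0.15 (limma adjusted p = 0.834 and 0.644).

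Among 15 genes of apolipoprotein B particle assembly and export (median 0.00027), Apobec1, A1cf and Sort1 had the largest differences, at 0.65, 0.58 and 0.53. A1cf is the RNA-binding partner of the Apobec1 deaminase, which together convert part of the Apob message to the form for the shorter apolipoprotein B48. A1cf (brightest probe) was 12.75, 12.89 and 13.01 in control and 13.43, 13.51 and 13.45 in soy. The groups were well apart, and the difference was 0.58 (SE 0.10, 95% interval 0.34 to 0.82), but it did not pass (limma, adjusted p = 0.081). A dimmer A1cf probe also had no overlap, with 0.77 (SE 0.19, adjusted p = 0.165). Apobec1 differed by 0.65 (SE 0.28, limma adjusted p = 0.443), with a wide control spread of 11.88, 10.92 and 11.76, and by 0.35 without control 2. Its other probes gave 0.66 (adjusted p = 0.425, no overlap) and, for the dimmest, -0.15. Rbm47, a further cofactor of this editing, was 12.95 ± 0.35 in control and 12.89 ± 0.18 in soy (SD, n = 3; limma adjusted p = 0.926). Sort1, a sorting receptor, was 11.03, 10.69 and 11.06 in control and 10.97, 11.46 and 11.96 in soy, which overlapped (limma adjusted p = 0.455), and it differed by 0.11 within slide 1 and 0.90 within slide 3. Rbm47 and Sort1 were named after their values were seen. Sar1a, a GTPase of the coat that carries cargo out of the endoplasmic reticulum, differed by -0.25 (SE 0.11, limma adjusted p = 0.444) without overlap.

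Of 10 genes of HDL formation and remodelling (median -0.055), Saa4 and Pon3 had no overlap. Saa4, a constitutive HDL apolipoprotein, was 15.02, 15.65 and 15.20 in control and 14.49, 14.14 and 14.72 in soy. Its difference of -0.84 (SE 0.20, 95% interval -1.31 to -0.37) was larger than that of Apoa4 and likewise did not pass (limma, adjusted p = 0.163), and it was -0.85 within slide 1 and -0.48 within slide 3. Pon3, an HDL-associated lactonase, differed by 0.39 (SE 0.12, limma adjusted p = 0.271), and Lipc, hepatic lipase, by -0.23 (SE 0.13, limma adjusted p = 0.569), or by -0.11 without soy 3.

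The list of lipoprotein lipase control and particle uptake (12 genes, median -0.17) held the smallest adjusted p of the 5 lists. Angptl4, a secreted inhibitor of lipoprotein lipase, was 16.13, 15.95 and 16.15 in control and 15.50, 15.31 and 15.50 in soy. The spread within each diet was smaller than the gap between them, with a difference of -0.64 (SE 0.11, 95% interval -0.89 to -0.39, limma adjusted p = 0.0681). Lpl itself differed by -0.71 (SE 0.22, limma adjusted p = 0.287), while the dimmer probes of this gene gave -0.42 and -0.36. With slide as a block it was -0.45, and it was -0.46 within slide 1 and -0.45 within slide 3. Furin, a protease that cleaves ANGPTL proteins, was 14.46, 14.39 and 14.23 in control and 14.02, 14.04 and 14.07 in soy. It differed by -0.32 (SE 0.10, limma adjusted p = 0.291), with no overlap but a gap between the nearest arrays, control 3 and soy 3, that was smaller than the range of the control arrays. It was -0.41 within slide 1 and -0.15 within slide 3.

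Among 16 transcription factors that act on apolipoprotein genes (median -0.084), the largest difference was in Nr1d1, the clock repressor REV-ERB alpha, with 10.04, 10.13 and 10.73 in control and 8.41, 9.43 and 8.29 in soy. It differed by -1.58 (SE 0.32, limma adjusted p = 0.106) without overlap. Its message follows the time of day, and the hour of collection is not given in the sources used here. Prox1 differed by -0.45 (SE 0.13, limma adjusted p = 0.257) and the bile acid receptor gene Nr1h4 by 0.39 (SE 0.12, limma adjusted p = 0.262), both without overlap.

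**Figure D3:**
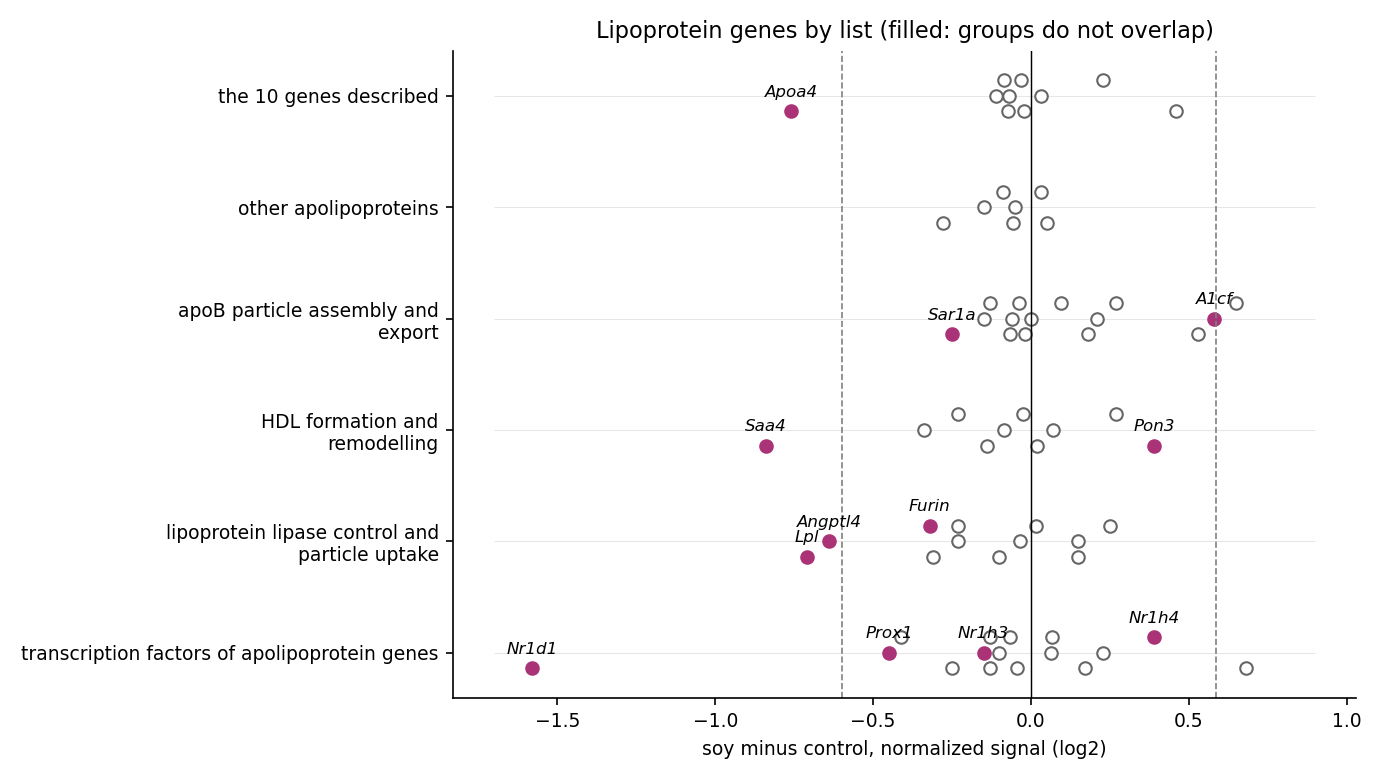
Soy minus control difference (log2) of the 10 genes described and of 60 further lipoprotein genes in 5 lists, 1 point per gene by its brightest probe, with points spread vertically only for legibility; filled points are genes whose soy and control values do not overlap, and dashed lines mark fold changes of 1.5 and 0.66. The filled points run from Nr1d1 at -1.58 to A1cf at 0.58, and none of the genes shown passed the test.

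The tissue label was checked against markers. The hepatocyte list had 7 genes on the array, all well above background on 6 arrays, with Alb as the brightest and Alb at 19.00 ± 0.015 in control and 18.86 ± 0.17 in soy (SD, n = 3). The summed signal of these hepatocyte genes was 2316212, 2393636 and 2306753 in control and 2233480, 2029508 and 2060517 in soy livers. Ass1 (-0.55, limma adjusted p = 0.174) and Cps1 (-0.47, limma adjusted p = 0.178), enzymes of the urea cycle, had no overlap and were named after their values were seen. The other hepatocyte genes overlapped between the diets, with Fgb at -0.37, Alb at -0.14, Ahsg at -0.058, Serpina1c at -0.032 and Ttr at 0.059. Apoa4 and Apob are also made by enterocytes. Of 6 enterocyte markers, Vil1, Lct, Slc5a1 and Cdx2 were not well above background on any array, Sis was so on 1, and Fabp2, the brightest, had 14.84 ± 0.36 in control and 14.58 ± 0.025 in soy. Apoe is also made by macrophages. The summed signal of 8 Kupffer cell and macrophage markers, with Cd5l as the brightest, was 38578, 53761 and 62116 in control and 48597, 58177 and 71032 in soy. All 8 were well above background on every array. The ratio of mean summed signal, soy over control, was 0.901 for hepatocyte, 1.15 for Kupffer cell and macrophage and 0.823 for enterocyte markers. The enterocyte sum was 39431, 26674 and 25038 in control and 25070, 25355 and 24576 in soy, with control 1 far above the other arrays. The ratio was 1.1 for endothelial, 0.912 for stellate, 1.08 for cholangiocyte, 1.24 for red cell and neutrophil and 0.904 for adipocyte markers. The endothelial sum was higher on every soy array (43626, 49695 and 45655) than on any control array (42211, 42513 and 41929). The red cell and neutrophil sum was 168712, 125163 and 180319 in control and 138437, 283795 and 165106 in soy. Only soy 2 was above all control arrays. Epcam, Adipoq and Plin1 were not well above background on any array, and no marker of any list passed. The stellate sum came mostly from Dcn, and it hid larger differences in Col1a1 (-1.0, limma adjusted p = 0.318) and Col3a1 (-0.94, limma adjusted p = 0.271), both without overlap. These collagen genes were named after their values were seen. The other stellate markers overlapped between the diets, with Reln at -0.23, Dcn at -0.083, Lrat at -0.029, Des at 0.0059 and Rgs5 at 0.33.

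The summed signals of the hepatocyte and of the 5 pancreas markers were, like Apoa4, lower on every soy array than on any control array. The pancreas sum was 30608, 46918 and 39210 in control and 22582, 28206 and 20679 in soy, most of it from Cela1, which differed by -0.73 (SE 0.19, limma adjusted p = 0.191) without overlap. Cpa1 and Pnlip were well above background on 2 control arrays and on no soy array. Soy arrays had fewer such spots over the whole array, 31308 to 32498 against 36366 to 38163 in control. The stellate marker Des, which differed by 0.0059, was likewise well above background on 3 control and 0 soy arrays. All 5 pancreas markers were lower in soy by their means, Cela1 and Ctrb1 (-0.26, limma adjusted p = 0.473) without overlap. Their ratio of mean summed signal was 0.612. The part of either list in the Apoa4 difference was not tested. In the fits without 1 array, Apoa4 differed by -0.90 to -0.54 (the last without control 3), and none passed (limma adjusted p = 0.255 to 0.407).

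**Figure D4:**
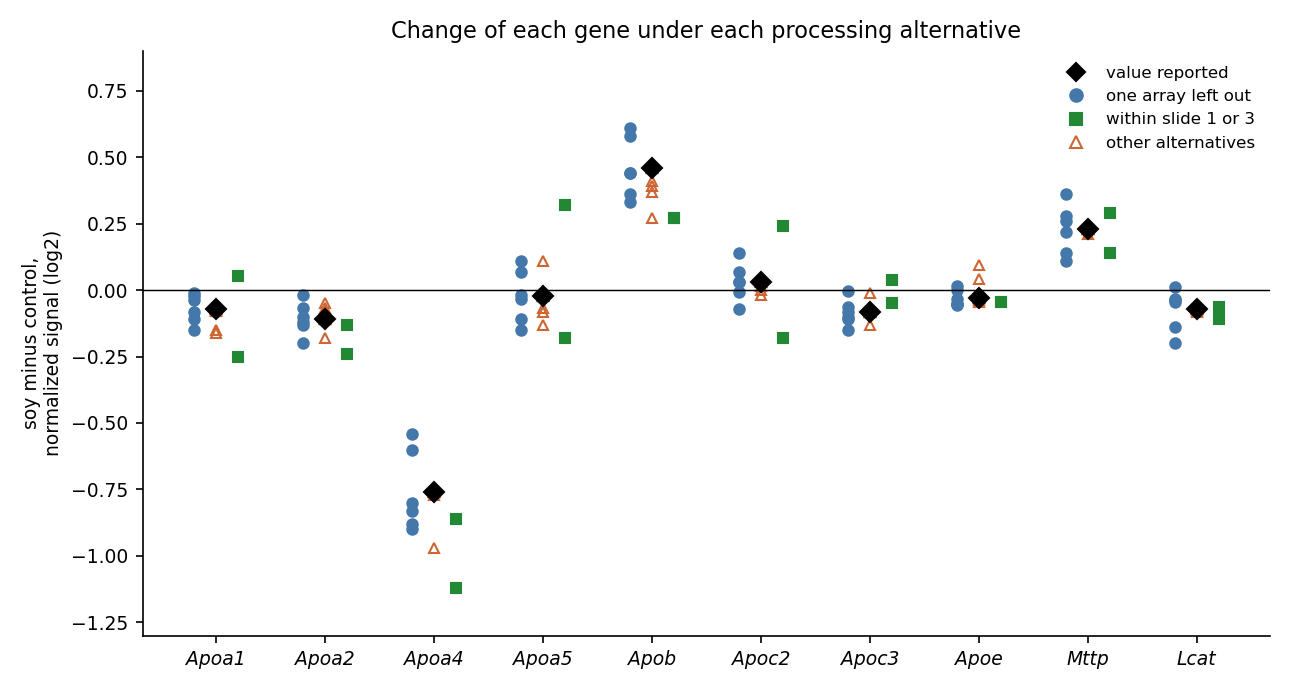
Soy minus control difference (log2) of each of the 10 genes as reported (diamonds), with 1 array left out (circles), within slide 1 or slide 3 (squares) and under the other processing alternatives (triangles). Apoa4 lies between -1.12 and -0.54 and Apob between 0.27 and 0.61 throughout, and Apoa2 and Mttp keep to one side of 0, while Apoa1, Apoa5, Apoc2, Apoc3, Apoe and Lcat fall on both sides.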

How the data were processed

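Liver RNA of 3 control and 3 soy mice was measured on 1-colour Agilent arrays. The authors deposited, per the file headers, Feature Extraction 11.5.1.1 output with unscaled median intensities of the spots and of the background around them, and a processed intensity with background and spatial trend subtracted, together with marks (other) that Feature Extraction set for each spot. A table of log2 values deposited by the authors shares its quantiles across arrays, with column medians of 7.33 to 7.34, and differed by 0.0705 at most from the values computed here. Its background correction is not stated.

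Median intensities were corrected by normexp (offset 50), control spots removed, arrays quantile normalized and log2 transformed, outlier spots set to missing and replicate spots averaged. All 56605 probes were fitted with limma 3.58.1 in R 4.3.3, with Benjamini-Hochberg adjustment over all of them. Intervals are limma's at 95%. Symbols came from RefSeq accessions (GRCm38.p6) for 58.3% of probes, and the array's own annotation is of a different build. Where several probes matched a gene, the one of highest mean signal stands for it. Signals of different probes were ranked by brightness and summed over marker lists, but they were not read as relative amounts of message. In the contrast of Apoa4 with its neighbours, only the difference between the diets is read. Slide 1 held control 1, control 2 and soy 1, slide 2 held soy 2, and slide 3 held control 3 and soy 3. The fit was checked on simulated data. The genes named by rule are the 10 members and, per pathway list, those that passed or the 3 with the smallest adjusted p. Cell type markers and genes marked in the text as named after their values were seen are in addition. One gene of these lists is not reported here and was left out of the lists' counts. Members and lists were chosen with earlier results of these data known. Alternatives are given in the closing section. Tables were made with Python 3.11.15 and pandas 2.3.3.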

Additional observations from a re-analysis of the deposited data

How the results depend on the processing

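None of the 10 genes passed under any alternative that gave a test, which the values within a slide and the mean over a gene's probes did not. The median over them, in these too, stayed between -0.079 and -0.012. The count of all probes that passed was 198 (118 higher, 80 lower). It became 13138 with the processed signal (11924 higher, 1214 lower), 299 with a 75th-percentile shift, 497 with only probes well above background, 25 with slide as a block and 25 to 203 with 1 array left out. The processed signal moved the median of all probes to 0.13, but that of probes well above background only to -0.0029. With the 75th-percentile shift these medians were 0.13 and 0.022, and 202 of the 299 probes were higher and 97 lower. Of the 60 further genes, 3 passed with the processed signal (A1cf, Angptl4 and Nr1d1), 1 with only probes well above background (Angptl4) and 1 with eBayes trend and robust settings (Angptl4). Apoa4, Apob, Apoa2 and Mttp kept their direction throughout. Signs turned, where the differences were near 0, as follows. With the processed signal Apoe was 0.093. With the 75th-percentile shift Apoc2 was -0.017 and Apoe 0.04. With slide as a block Apoa5 was 0.11 and Apoc2 -0.00021. Within slide 1 Apoa1 was 0.052, Apoa5 0.32, Apoc2 -0.18 and Apod 0.0013, and within slide 3 Apoc3 was 0.036. With 1 array left out, Apoe ranged from -0.056 to 0.016, Apoc2 from -0.072 to 0.14, Apoa5 from -0.15 to 0.11 and Lcat from -0.20 to 0.012. Among those that kept their sign with 1 array left out, Apoa1 ranged from -0.15 to -0.012, Apoa2 from -0.20 to -0.017 and Apoc3 from -0.15 to -0.0051. Apom ranged from -0.39 to -0.16, Apod from -0.21 to -0.083 and Apof from -0.17 to -0.0047. Within slide 3, Prox1 was -0.27, Nr1h4 0.24, Nr1d1 -2.43 and Mttp 0.14, and within slide 1 Sar1a was -0.10. The cause was not tested.

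With the replicate number as a block 78 probes passed, and none of the 10 genes. Deviations of same-numbered arrays correlated by 0.116, -0.0574 and 0.106, and those of differently numbered arrays by -0.202 to 0.105. Control 1 and soy 1 shared slide 1, and control 3 and soy 3 shared slide 3, so number and slide cannot be told apart there. The numbers were not taken as pairs. Leaving out saturated probes removed none. The number of arrays, 3 per diet, limits the precision of each value.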
